A study of Mus musculus with 16 samples.

Results

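The genes described here belong to the bone morphogenetic protein (BMP) pathway: 3 ligands (Bmp2, Bmp4 and Bmp6), the receptor Bmpr1a, the feedback inhibitors Smad6 and Smad7, and the 4 Id genes (Id1, Id2, Id3 and Id4). They are the rows of the deposited tables whose mouse Ensembl identifier maps to those 10 symbols. All 10 were found among 55357 rows of the skin table and among 56953 rows of the stem cell table, and all 10 passed the filter on low values in both. The study asked how G-protein-coupled receptor kinase 2 (GRK2) acts in the hair follicle, and it compared control mice with mice labelled GRK2 eKO in 16 bulk RNA sequencing libraries. Whole back skin gave 5 control and 5 eKO libraries from C57BL/6 mice aged 8 months. Hair follicle stem cells (HFSC), sorted as CD34+ and α6-integrin+ cells of the follicle bulge, gave 3 control and 3 eKO libraries, also from C57BL/6 mice. The age label of the HFSC libraries reads 18 months and the design text reads 8, so that age is not settled here. The labels do not spell out eKO, and the promoter or Cre that removes Grk2, the deleted exons, the genotype of the control mice, the sex of the animals and the preparation batch were not given in the sources used here. The labels do not say whether each library came from 1 mouse or from a pool of mice. The p-values therefore measure the spread between these libraries, which may in part be technical.

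BMP ligands are secreted dimers that bring type I receptors, such as the one encoded by Bmpr1a, together with type II receptors. The activated type I receptor phosphorylates SMAD1, SMAD5 and SMAD9, which join SMAD4 and bind DNA at target genes. The Id genes are among the best known direct targets. Their products lack a DNA-binding region and pair with basic helix-loop-helix proteins, chiefly the E proteins, so that these no longer bind DNA. SMAD6 and SMAD7 are inhibitory SMADs that the pathway itself induces and that block its receptors. In the hair follicle, BMP signalling keeps bulge stem cells quiescent, and antagonists such as noggin and gremlin relieve that brake when hair growth starts.

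In sorted stem cells, Id1, Id2, Id3 and Smad6 were lower in eKO than in control and Id4 was higher, while the ligands, Bmpr1a and Smad7 did not pass the test. In whole skin, none of the 10 passed it. The stretches of 250 bases before the start of 4 of the 5 genes that changed are shown first, because the sequence bound by BMP-activated SMADs can be looked for there. Bases farther from the start were not searched, so elements there would be missed. They are RefSeq sequences of the GRCm38.p6 build, not read from these mice, and 7 of the 10 members were in that table. Of those that changed, Id1 was not in it. Each is printed 5′ to 3′ on the strand of its gene, and capitals mark every match to GGCGCC or GGAGCC on either strand, so that GGCTCC in capitals is GGAGCC on the other strand. These are the GC-rich elements that BMP-activated SMADs are known to bind.
Id2 (chr12:25096093-25096342, minus strand): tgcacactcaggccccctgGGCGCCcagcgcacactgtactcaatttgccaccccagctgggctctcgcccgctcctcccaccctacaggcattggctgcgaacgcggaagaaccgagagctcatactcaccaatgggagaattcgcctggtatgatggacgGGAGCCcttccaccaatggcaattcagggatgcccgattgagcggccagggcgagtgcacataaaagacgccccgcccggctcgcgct
Id3 (chr4:136143572-136143821, plus strand): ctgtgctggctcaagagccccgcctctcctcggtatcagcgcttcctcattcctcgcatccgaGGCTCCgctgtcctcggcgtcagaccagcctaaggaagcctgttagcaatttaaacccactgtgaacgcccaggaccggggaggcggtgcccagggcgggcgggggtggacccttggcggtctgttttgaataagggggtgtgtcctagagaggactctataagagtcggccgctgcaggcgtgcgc
Id4 (chr13:48260866-48261115, plus strand): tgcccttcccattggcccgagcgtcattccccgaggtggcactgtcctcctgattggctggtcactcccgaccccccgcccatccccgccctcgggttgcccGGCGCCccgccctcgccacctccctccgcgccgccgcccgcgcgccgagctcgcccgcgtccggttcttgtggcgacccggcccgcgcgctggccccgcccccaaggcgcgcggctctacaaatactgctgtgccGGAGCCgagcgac
Smad6 (chr9:64022060-64022309, minus strand): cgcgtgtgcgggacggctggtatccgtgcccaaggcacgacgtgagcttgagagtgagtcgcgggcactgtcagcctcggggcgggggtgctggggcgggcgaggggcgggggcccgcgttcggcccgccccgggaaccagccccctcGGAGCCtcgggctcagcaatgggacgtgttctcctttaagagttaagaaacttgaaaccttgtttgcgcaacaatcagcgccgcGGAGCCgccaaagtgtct
GGCGCC occurred once in the Id2 and once in the Id4 stretch, and GGAGCC occurred once in each of Id2, Id3 and Id4 and 2 times in Smad6. Among all 32851 promoter stretches of the same length in the table, 9.59% held GGCGCC, 26.0% held GGAGCC and 31.7% held either. The stretches shown are rich in G and C, with at least 62.8% of their bases, and 64.5% of the 7115 stretches at least that rich held 1 of the elements. The element is thus common in stretches of that base composition, and its presence in Id4, which rose, as in Id2, Id3 and Smad6, which fell, does not separate the directions. Of the members that did not pass the test, Bmpr1a had GGCGCC once, Bmp4 had GGAGCC once and Bmp6 had neither.

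Whole-series facts that bear on these genes were as follows. Summed reads ran from 8.21 M to 16.4 M (M for mega) per skin library and from 6.43 M to 9.39 M per HFSC library, and the members were read 33 to 2098 times in a library of HFSC and 96 to 3383 times in a library of skin. Values are the authors' normalised read counts, that is, reads divided by 1 factor per library, and tests were made in limma on log2(value + 1) with a Benjamini-Hochberg adjusted threshold of 0.05. In skin, Grk2 itself ranged from 1099.7 to 1492 over the control and from 980 to 1224 over the eKO libraries. In HFSC it ranged from 121 to 144 and from 104 to 122. The groups overlapped in both tissues, and the limma adjusted p was 0.343 and 0.501, so whole-gene counts do not separate the labels. Both sort markers were present in all 6 HFSC libraries. Cd34 was at 1157 to 1323, with overlapping groups. Itga6, which encodes α6-integrin, was at 2047 to 2311 in control and 3141 to 3290 in eKO, and was called higher (limma adjusted p 0.000510). Of 10 bulge stem cell genes tested, 3 rose (Itga6, Krt5 and Krt14) and 1 fell. Krt14 went from 9424 to 10096 in control to 21720 to 25740 in eKO (limma adjusted p 1.62e-07). Lgr5 fell from 7251 to 7470 in control to 3654 to 3978 in eKO (limma adjusted p 2.85e-06).

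Marker genes of other cell types also differed between the HFSC groups. Whether they came from other cells, and their part in the results on the members, was not tested. Of 9 endothelial marker genes tested, 8 rose in eKO, and the sum over the list went from 56.0 to 71.5 in control libraries to 1206 to 1370 in eKO libraries. Vwf, Emcn and Cldn5 were at 0 in every control, and Cldn5 was at 0 in every eKO library too. Sebaceous gland genes (6 of 8 tested) and differentiated epidermis genes (6 of 9, with 1 lower) also rose, with sums of 2999 to 3122 against 12697 to 13375 and of 5350 to 6791 against 20128 to 20506. Hair matrix and shaft genes (4 of 5), leukocyte genes (3 of 5) and cell cycle genes (4 of 10) rose in part, with sums of 511 to 589 against 1970 to 2265, 295 to 359 against 1370 to 2301, and 1347 to 1433 against 2138 to 2291. Of 14 hair matrix and shaft genes measured, only 5 were high enough to be tested. Krt34, Krt81 and Tchh were at 0 throughout, and Krt35 was at 0 in every control. Of 4 dermal papilla genes tested 3 rose and 1 fell, with list sums of 1347 to 1431 against 3890 to 4460. Sox2 was at 0 throughout, and Corin and Prom1 were at 0 in every control. Fibroblast genes (1 of 4 higher) summed to 1353 to 1497 in control and 1032 to 1179 in eKO, with Lum and Dpt at 0 throughout, and melanocyte genes (1 of 4 lower) to 1888 to 2270 and 622 to 950. The 4 Y-linked genes all fell, from a sum of 2340 to 2476 to one of 704 to 831, so that genotype and sex-linked expression cannot be told apart in HFSC. In skin that sum was 0.642 and 1.90 in 2 libraries and 2297 to 2762 in the others, so the eKO HFSC sums were intermediate. Whether the eKO HFSC libraries each mix cells of male and female mice, as a pool would, was not tested. They may therefore not be independent replicates of the genotype.

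The 4 Id genes all changed in HFSC. Id2, the most abundant of them per kilobase of exon, was at 1835, 2145 and 2098 in the control libraries and at 1309, 1038 and 1460 in the eKO libraries. Every eKO library lay below every control. Its log2 fold change was -0.69 (SE 0.13, limma adjusted p 0.00237), a fall by 37.8% with a 95% interval from -48.6% to -24.7%. Id3 was at 1160, 1174 and 1284 in control and at 881, 711 and 822 in eKO, again with no overlap. It fell by 0.59 on the log2 scale (SE 0.12, limma adjusted p 0.00381). Id1 was at 716, 761 and 773 in control and at 568, 563 and 585 in eKO, and the groups did not overlap here either. Its log2 fold change of -0.39 (SE 0.12) was the smallest of the 4 in size and passed narrowly, with a limma adjusted p of 0.0350. That call depended on single libraries: it was lost in 5 of the 6 fits that left out 1 library. Values in those 5 fits were -0.42 to -0.37, with limma adjusted p up to 0.128. The call held without eKO replicate 1. It was also lost in the fit with the replicate number as a block (limma adjusted p 0.0622), whose pairing the data did not show.

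Id4, in contrast, was at 724, 824 and 1066 in control HFSC and at 1504, 1445 and 1482 in eKO HFSC. Each eKO library was above each control, and the eKO libraries lay close together where the controls were spread. Its log2 fold change was 0.78 (SE 0.14, limma adjusted p 0.00146), a rise of 71.7% with a 95% interval from 40.2% to 110%. Id2, Id3 and Id4 kept their calls in every alternative fit that was run. Id4 overlaps A330033J07Rik by 82 exon bases and Gm49291 by 171 on the opposite strand, out of 3849 exon bases, and since the strand setting is not given in the sources used here, reads in those bases cannot be assigned. Against the 4 of 10 members that fell and the 1 that rose, 8.74% of all 13784 genes tested in HFSC were called lower and 10.7% called higher. Every eKO library was below every control for 4 members and above for 1, against 17.4% and 18.9% of all genes tested. The median log2 change was -0.18 over the 10 members and -0.03 over all genes.

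**Figure D1:**
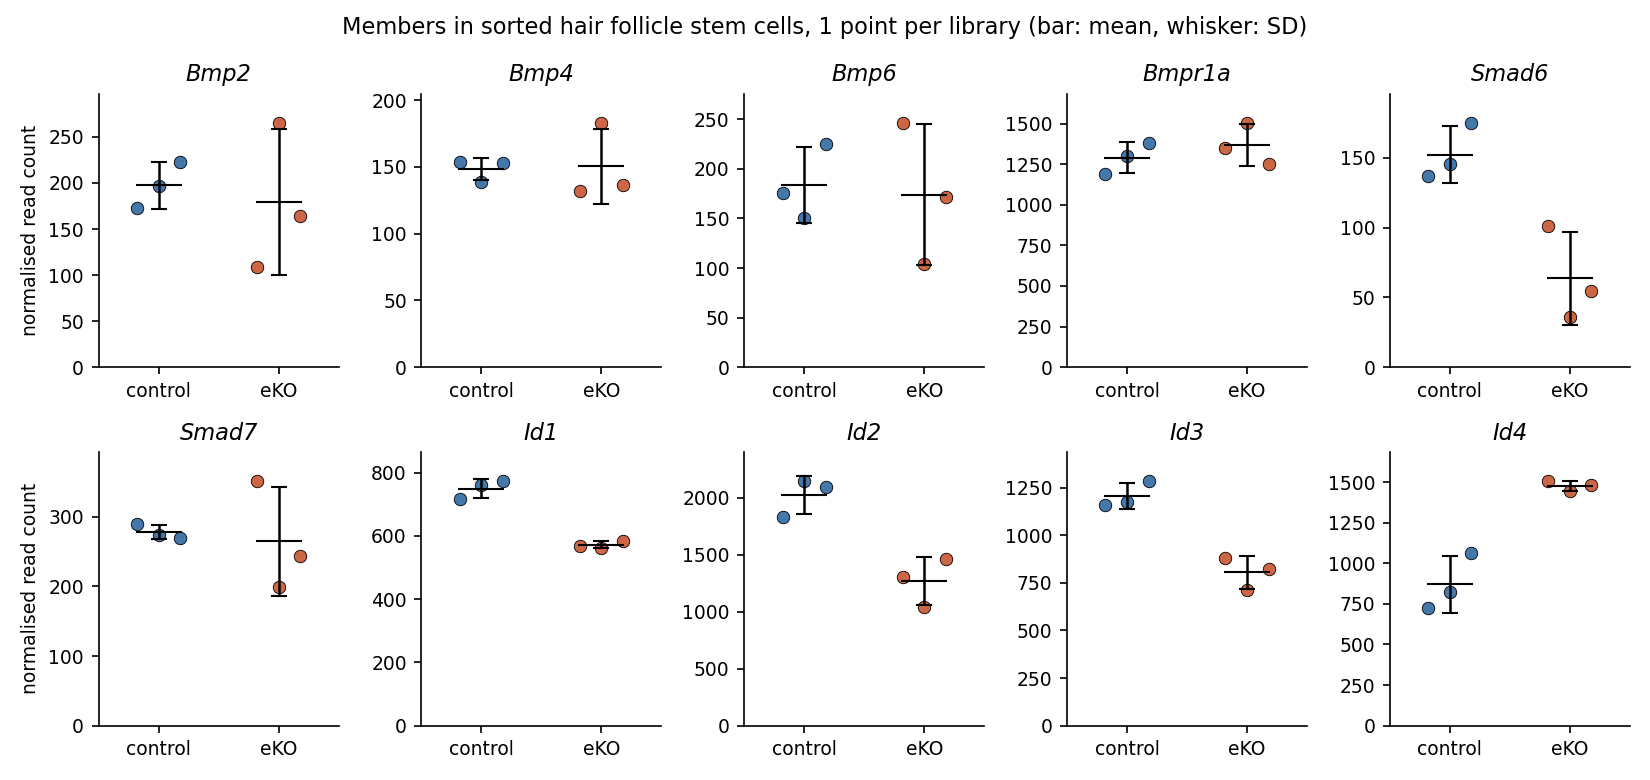
Normalised read count of each of the 10 members in sorted hair follicle stem cells, with 1 point per library, a bar at the mean and whiskers of 1 SD, for 3 control and 3 eKO libraries. Id1, Id2, Id3 and Smad6 lie lower in every eKO library than in any control, Id4 lies higher, and the points of Bmp2, Bmp4, Bmp6, Bmpr1a and Smad7 overlap.

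The makeup of the Id family can be described from levels divided by exon length, as a rough scale for comparing genes. The length is that of all annotated exons of a gene merged, and reads were taken as proportional to it. Neither that proportion nor the transcripts in use were tested, and the order of genes and the size of the shares below depend on them. In control HFSC the order was Id2 (831 ± 68.5 normalised reads per kilobase), Id3 (673 ± 37.9), Id1 (646 ± 25.8) and Id4 (226 ± 45.7), each as mean ± SD with n = 3. The ranges of Id3 and Id1 overlapped, so their order is not settled, whereas Id4 lay below the other members of the family in every library. In eKO HFSC the levels were Id2 521 ± 87.7, Id1 493 ± 9.72, Id3 449 ± 48.1 and Id4 384 ± 7.79 (SD, n = 3 each), all 4 closer together. Id4 made up 8.53%, 8.90% and 10.99% of the summed Id level in the control libraries and 20.5%, 22.3% and 19.8% in the eKO libraries. The share of Id2 went from 34.1%, 36.6% and 34.1% to 28.1%, 25.3% and 30.8%. Shares within a library do not depend on the scaling between libraries. The summed level itself was 2206 to 2520 per kilobase in control and 1684 to 1947 in eKO, so the rise of Id4 did not make up for the fall of the others. These shares are descriptions of genes already tested one by one and carry no test of their own. In skin, Id4 made up 10.9% to 19.2% of the Id level in control and 10.1% to 22.1% in eKO libraries, which overlap.

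Of the feedback inhibitors, Smad6 changed and Smad7 did not pass the test. Smad6, which preferentially blocks BMP receptors, was at 137, 145 and 175 in control HFSC and at 101, 36.2 and 54.3 in eKO HFSC. The groups did not overlap, and the eKO libraries differed from each other more than the controls did. Its log2 fold change was -1.36 (SE 0.35, limma adjusted p 0.0162), the largest in size among the members, with a wide 95% interval from -2.12 to -0.60. Between 33 and 175 reads per library stood behind these values. The call was lost without control replicate 2 (-1.39, limma adjusted p 0.0610) or control replicate 3 (-1.26, 0.0773), while the value kept its sign in every alternative. Smad7, which blocks both BMP and TGF-β receptors, was at 290, 275 and 269.95 in control and at 351, 199.5 and 244 in eKO. The eKO libraries surrounded the controls, and the log2 fold change was -0.11 with a 95% interval from -0.56 to 0.34 (limma adjusted p 0.758).

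The ligands and the receptor gave no call in HFSC. Bmp2 was at 173, 197 and 223 in control and at 108, 265 and 164 in eKO, for a log2 fold change of -0.23 with a 95% interval from -0.84 to 0.39 (limma adjusted p 0.630). Bmp4 was at 154, 139 and 153 in control and at 132, 183 and 136 in eKO, and its log2 fold change of 0.00 had a 95% interval from -0.48 to 0.49 (limma adjusted p 0.992). Bmp6, a ligand that bulge cells themselves are known to make, was at 176, 150 and 225 in control and at 246, 104 and 171 in eKO, at -0.14 with an interval from -0.78 to 0.49 (limma adjusted p 0.776). For Bmp2 and Bmp6, a fall as large as that of Id2 lies within the interval and was not detectable with 3 libraries a group, while the interval of Bmp4 ends short of it. Bmpr1a, the type I receptor most studied in bulge quiescence, was at 1189, 1299 and 1381 in control and at 1350, 1505 and 1253 in eKO. Its log2 fold change of 0.08 had the narrowest interval of the 5 members without a call, from -0.15 to 0.32 (limma adjusted p 0.638). The 3 eKO libraries did not move together: replicate 1 had the highest Bmp6, Smad6 and Smad7 and the lowest Bmp2 and Bmp4, and replicate 2 the reverse for all of these genes. Opposite-strand genes share exon bases with Bmp6 (Txndc5, 224 bases), Bmpr1a (Gm17110, 290.0 bases) and Bmp4 (Gm15217, 89 bases), with the same limit on strand.

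The other genes of the pathway were taken from 7 lists holding 66 genes, of which 52 were tested in HFSC. Of those 52, 5 rose, 7 fell and 40 did not pass, against the 10.7% and 8.74% of all genes given above, and their median log2 change was 0.01. At an unadjusted p below 0.05 there were 21, against 32.8% of all genes. The 12 called genes were also called by edgeR and by DESeq2, and DESeq2 added Bmper and Dlx3. Extracellular antagonists, which bind BMP ligands and keep them from the receptors, gave 3 falls and 1 rise among 10 tested. Grem1, which encodes gremlin, was at 3395, 3000.0 and 3326 in control HFSC and at 1526, 1517 and 1399.7 in eKO HFSC. Its groups lay far apart for their spread, and it fell by 1.13 on the log2 scale (SE 0.09, limma adjusted p 4.22e-06). Nog, which encodes noggin, was at 179, 301 and 438 in control and at 120, 171 and 144 in eKO, at -0.99 (SE 0.29, limma adjusted p 0.0285). Its controls were widely spread, and leaving out any of 4 libraries (control replicate 2 or 3, eKO replicate 1 or 3) ended the call, at values of -0.996 to -0.69 and limma adjusted p of 0.0703 to 0.146. Crim1, a membrane protein that binds BMPs in the cell that makes them, fell by 0.53 (limma adjusted p 0.00194). Twsg1, a secreted protein that can both help and hinder BMP signalling, rose by 0.58 (limma adjusted p 0.00562). Sostdc1, an antagonist abundant in follicles, was at 4248 to 4579 in control and 4894 to 5415 in eKO, and with a log2 change of 0.20 it did not pass (limma adjusted p 0.0927). Bmper, an extracellular BMP regulator, was at 11.8 ± 2.27 in control and 39.5 ± 18.1 in eKO (SD, n = 3), and at 1.57 it did not pass either (limma adjusted p 0.0601).

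Among 9 other receptors and co-receptors, 1 rose and 1 fell. Eng, a co-receptor for BMP9, BMP10 and TGF-β best known from endothelium, was at 26.9, 55.8 and 23.0 in control HFSC and at 187, 185 and 131 in eKO HFSC. All eKO libraries lay above all controls, and Eng rose by 2.31 on the log2 scale (SE 0.36, limma adjusted p 0.000746), beside the rise of 8 of 9 endothelial markers given above. Rgma, a BMP co-receptor, was lower by 0.50 (log2 fold change -0.50, limma adjusted p 0.0357), a call that ended without the filter on low values (0.0513) or without control replicate 1 or 3 or eKO replicate 1 or 2 (0.0750 to 0.156). The type II receptor Bmpr2 and the type I receptor Acvr1 had log2 changes of 0.10 and 0.22 and did not pass. The type II receptor Acvr2b was at 42.0 to 54.7 in control and 12.1 to 41.5 in eKO, with every eKO library below every control, and at -1.27 it did not pass (p 0.0264, limma adjusted p 0.0990). The co-receptor Rgmb (0.35) also had an unadjusted p below 0.05 only. Among 9 genes of the signalling SMADs and their modifiers, 2 rose and 0 fell at the adjusted threshold, with 1 more, Smurf2 (-0.36), at an unadjusted p below 0.05. Bambi, a pseudoreceptor that dampens BMP and TGF-β signalling and is itself a target of these pathways, was at 127, 128 and 99.98 in control and at 227, 287 and 276 in eKO, and rose by 1.15 (limma adjusted p 0.00206). Skil, which encodes the SMAD repressor SnoN, rose by 0.71 (limma adjusted p 0.00170). The signal-transducing Smad1, Smad5 and Smad9 had log2 changes of 0.05, -0.25 and -0.72, none of which passed.

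Among 8 other targets, 1 rose and 1 fell. Atoh8, a transcription factor gene induced by BMP signalling, was at 45.9, 42.1 and 69.0 in control HFSC and at 7.58, 16.4 and 8.52 in eKO HFSC, all eKO libraries being below the controls. It fell by 2.21 on the log2 scale (SE 0.51, limma adjusted p 0.00970), and the call ended without control replicate 3 (-1.997, 0.0714). Foxn1, a regulator of keratinocyte and hair shaft differentiation, was at 6.98, 27.4 and 53.0 in control and at 102, 116 and 75.6 in eKO, and rose by 2.08 (limma adjusted p 0.0237). That call ended without control replicate 1 or 2 or eKO replicate 1 or 2, at values of 1.31 to 2.23 and limma adjusted p of 0.0573 to 0.0751. Msx2, which is also on the hair matrix list, had a log2 change of 0.42 and did not pass (limma adjusted p 0.137). Nor did Dlx3 at 0.60 (0.0545) or Nfatc1 at -0.28 (0.0674). Msx2, Dlx3 and Nfatc1 each had an unadjusted p below 0.05. The E proteins, the partners that Id proteins hold off DNA, gave 2 falls among 3. Tcf4 was at 1657, 1770.4 and 1854 in control and at 1140.3, 1145 and 1124 in eKO, a fall by 0.63 (SE 0.10, limma adjusted p 0.000634). Tcf12 was at 5499, 5551 and 5605 in control and at 3521, 4126 and 4481 in eKO, a fall by 0.46 (SE 0.09, limma adjusted p 0.00355). In both genes every eKO library lay below every control. Tcf3 had a log2 change of 0.18 with overlapping groups (limma adjusted p 0.545). Of the 10 genes tested on the TGF-β branch, limma, edgeR and DESeq2 called 0, with 1, Tgfbr3 (-0.27), at an unadjusted p below 0.05, and of 3 other BMP ligands tested they also called 0, with 0 below that p.

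**Figure D2:**
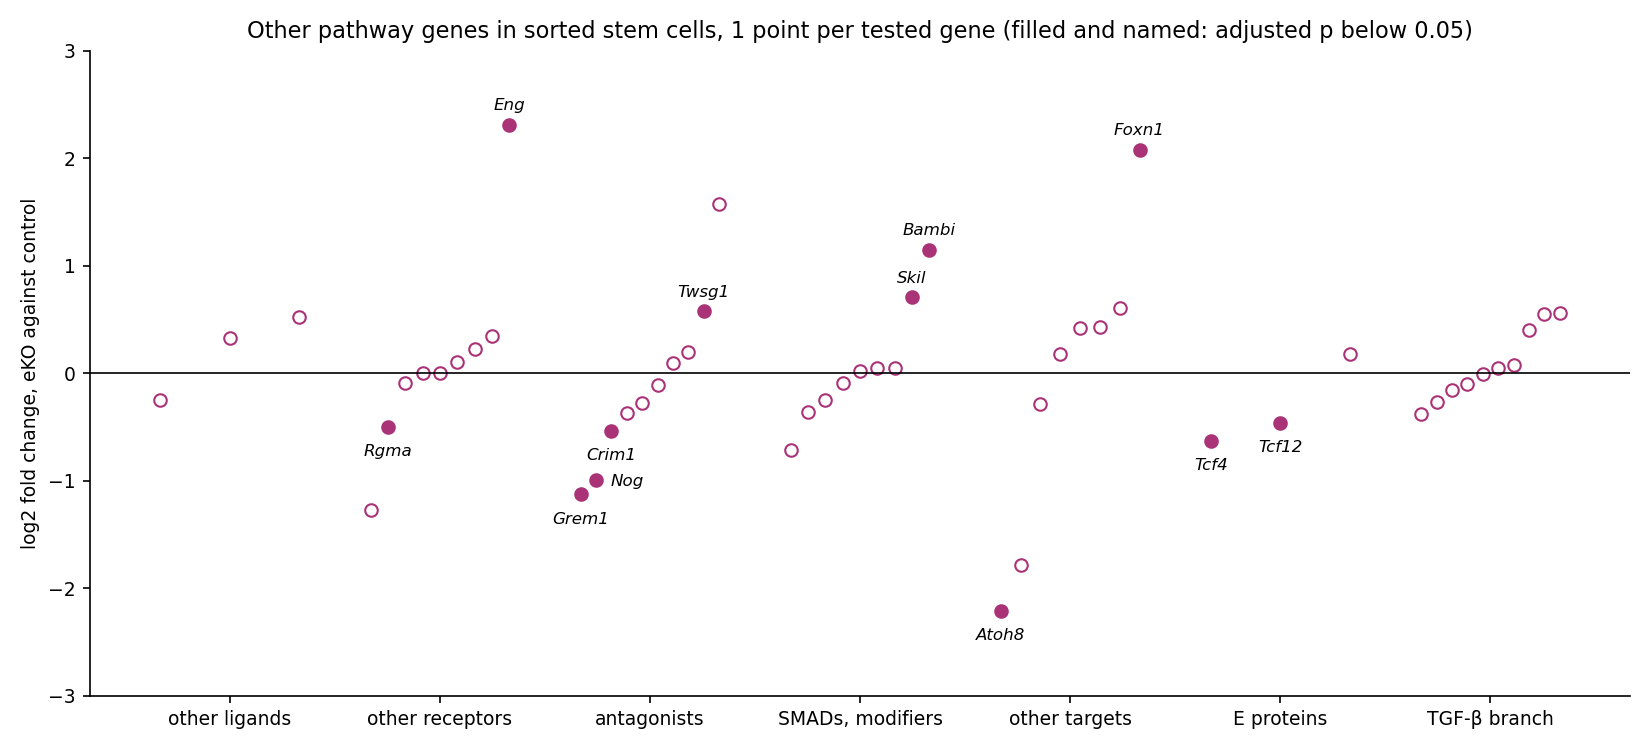
Log2 fold change, eKO against control, of the 52 other pathway genes tested in sorted stem cells, grouped by role along the horizontal axis, with 1 point per gene. Filled points with names passed an adjusted p of 0.05: 5 lie above the zero line and 7 below it, and none of the 10 genes of the TGF-β branch is filled.

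In whole skin the members gave no call. With limma, edgeR and DESeq2, 0 of 10 passed, against 0.374% of all 16589 genes tested in limma, and 1 member had an unadjusted p below 0.05, as had 14.2% of all genes. No member separated the genotypes, against 4.18% of all genes. Bmp2 was at 424, 287, 478, 545 and 470.5 in control libraries and at 343, 395, 352, 287 and 256 in eKO libraries. The lowest control lay among the eKO values, and the log2 fold change was -0.42 (SE 0.18, p 0.0413, limma adjusted p 0.327). Bmp4, made in follicles chiefly by the dermal papilla, was at 449, 363, 409, 745 and 499 in control and at 367, 367, 469, 184 and 311 in eKO, at -0.55 (SE 0.26, limma adjusted p 0.362). Both ligands were thus lower on average in eKO skin by 25.1% and 31.8%, with 95% intervals from -43.1% to -1.36% and from -53.9% to 0.78%, and neither passed. Bmp6 had a log2 change of -0.04 with an interval from -0.56 to 0.49. In bulk skin, fewer cells of a type and less RNA per cell cannot be told apart. Of 10 sebaceous gland genes tested in skin, 3 were called higher in eKO and all 10 had an unadjusted limma p below 0.05. Their median log2 change was 1.19, with list sums of 17062 to 66579 in control and 53254 to 90490 in eKO. No other marker list held a call in skin, and the part of the sebaceous gland genes in the results on the members was not tested.

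The Id genes and the inhibitors in skin had log2 changes near 0 and wide intervals. Id1 was at 350 to 647 in control (median 556) and at 433 to 638 in eKO (median 582), a log2 change of 0.16 with a 95% interval from -0.24 to 0.56. Id2 was at 392 to 573 in control (median 463) and 499 to 633 in eKO (median 528), at 0.20 with an interval from -0.09 to 0.49. Id3 was at 276 to 737 in control (median 535) and 441 to 548 in eKO (median 462), at -0.04 with an interval from -0.57 to 0.49. Id4 was at 514, 590.2, 528, 670.3 and 533 in control and at 452, 429.95, 1216, 899.6 and 535 in eKO, at 0.20 with an interval from -0.39 to 0.79. Its 2 highest values came from eKO replicates 3 and 4, and of the other eKO libraries 1 lay within and 2 below the control range. Bmpr1a was at 1610 to 2243 in control and 1648 to 2172 in eKO, at 0.06 with an interval from -0.19 to 0.31. Smad6 was at 236, 115, 149, 823 and 194 in control and at 161, 194, 396, 309 and 140.4 in eKO. Smad7 was at 381, 282, 362, 1211 and 489 in control and at 376, 363, 765, 557 and 396 in eKO. Control replicate 4 stood far above the other controls in both inhibitors, followed by eKO replicates 3 and 4. The resulting log2 changes were -0.05 with an interval from -1.14 to 1.04 for Smad6 and 0.00 with an interval from -0.81 to 0.80 for Smad7.

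**Figure D3:**
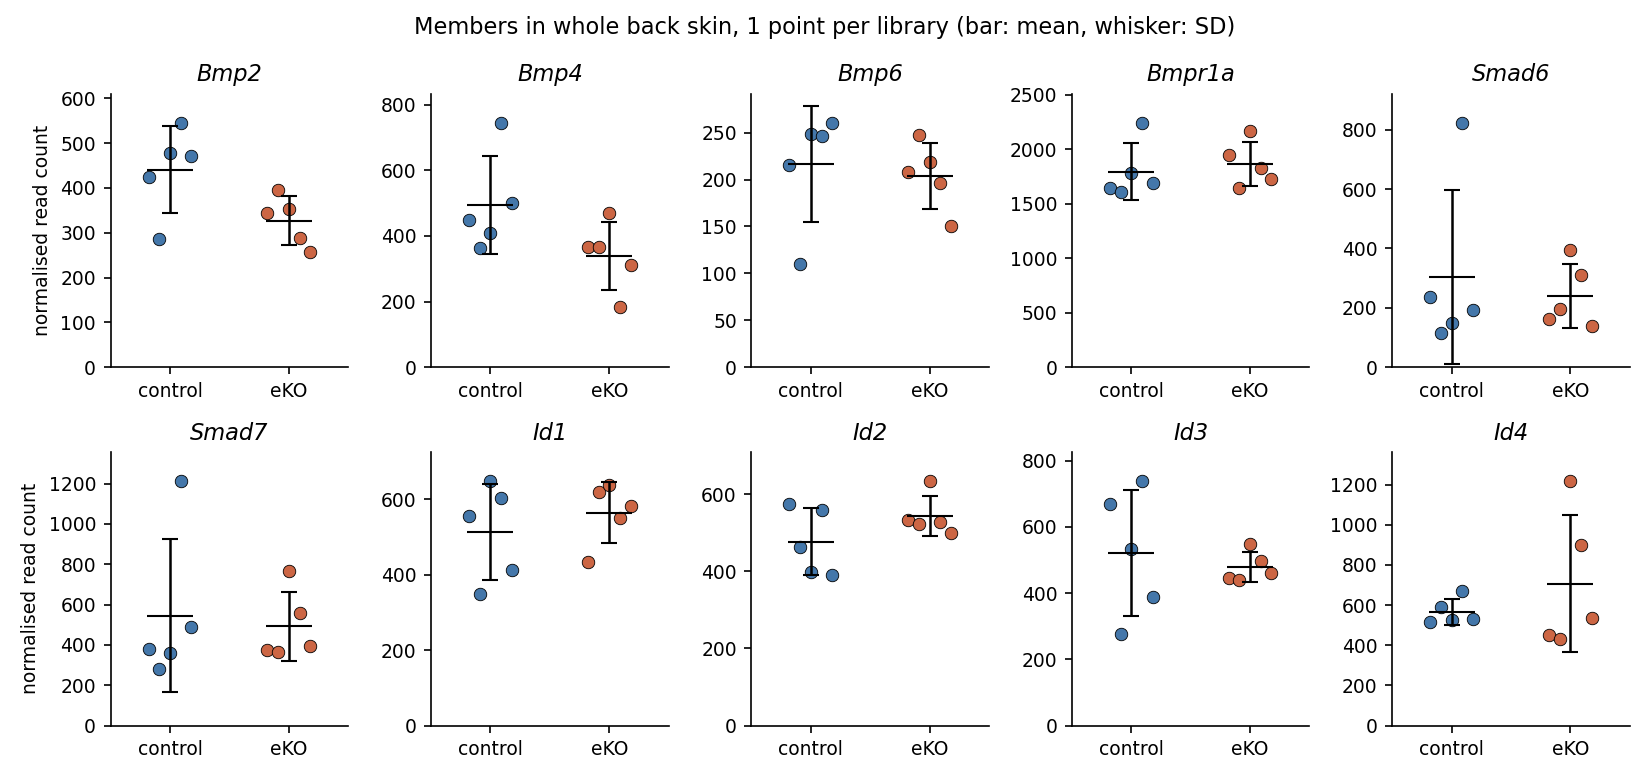
Normalised read count of each member in whole back skin, with 1 point per library, a bar at the mean and whiskers of 1 SD, for 5 control and 5 eKO libraries. All 10 pairs of groups overlap, and 1 control library stands apart at 823 for Smad6 and 1211 for Smad7.

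The same 3 libraries were the highest in hair matrix and shaft genes, keratins and regulators of the growing hair. The mean log2 value over that list was 11.2 in control replicate 4, 9.41 in eKO replicate 3 and 8.45 in eKO replicate 4, against 1.67 to 7.67 in the others, and Tchh was at 0 throughout. Over the 10 skin libraries, and over 10 relations computed after the values had been seen, Smad7 followed this score with a Pearson r of 0.777 (permutation p 0.0036, adjusted 0.036) and a Spearman rho of 0.648 (permutation p 0.0487, adjusted 0.167). Without the 2 libraries farthest from the median score, control replicate 1 and eKO replicate 1, r was 0.825. Both are the lowest in score, and without control replicate 4, the highest, r was 0.672 and rho 0.517 over 9 libraries. Smad6 gave an r of 0.732 (permutation p 0.0113, adjusted 0.0565) and a rho of 0.612 (permutation p 0.0662, adjusted 0.167), with r at 0.873 without those 2 libraries and 0.590 without control replicate 4. Id4 had the highest rho of the 10 members, 0.685 (permutation p 0.034, adjusted 0.167), with an r of 0.581 (permutation p 0.0748, adjusted 0.187), 0.487 without those 2 libraries and 0.621 without control replicate 4, and its 3 highest values came from the same 3 libraries. After adjustment, Smad7 passed by Pearson and not by Spearman, Smad6 passed by neither, and neither did Id4 or any other member. The part of hair growth stage in these values was not tested further, and with the score as a covariate the genotype fit called 0 members. Smad6 and Smad7 also varied together over the 10 libraries (r = 0.957), as did Bmpr1a and Smad7 (0.854), Bmp2 and Bmp6 (0.780), Bmp2 and Bmp4 (0.767) and Id1 and Id3 (0.757). These pairs share libraries and their makeup of cells and are given as a description.

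**Figure D4:**
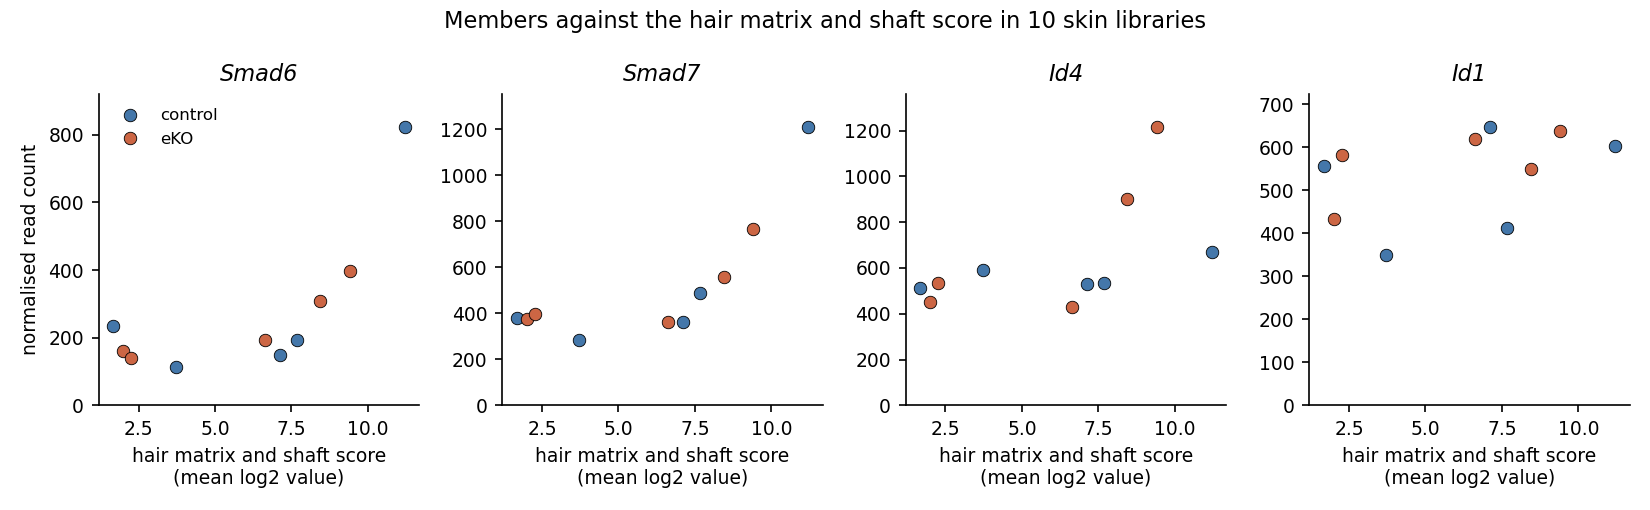
Normalised read count of Smad6, Smad7, Id4 and Id1 against the mean log2 value of hair matrix and shaft genes, with 1 point per skin library, 5 control and 5 eKO. The 3 libraries with scores of 8.45, 9.41 and 11.2 are the highest in Smad6 and Smad7, and also in Id4, while Id1 shows no such order.

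Levels per kilobase ordered the members in another way in skin than in stem cells. In control skin the order was Id1 (443 ± 109), Id3 (291 ± 107), Bmpr1a (282 ± 41.0), Bmp4 (219 ± 66.5), Id2 (196 ± 35.3), Id4 (147 ± 16.8), Bmp2 (124 ± 27.1), Smad7 (121 ± 83.9), Smad6 (94.7 ± 91.8) and Bmp6 (55.4 ± 15.8), as normalised reads per kilobase, mean ± SD with n = 5. Every neighbouring pair in that order overlapped between libraries. In control HFSC, Bmpr1a followed the Id genes at 203 ± 15.2, and Bmp4 (66.0 ± 3.71), Smad7 (61.5 ± 2.35), Bmp2 (55.5 ± 7.09), Smad6 (47.5 ± 6.28) and Bmp6 (47.1 ± 9.72) followed it (SD, n = 3), again with overlap between neighbours except between Id2 and Id3, between Id1 and Id4, and between Bmpr1a and Bmp4. The tables were normalised separately, so levels are compared within a tissue only. The genes most like a member over the 10 skin libraries, by Pearson r on the log2 scale and with no test, were Gm20605 (0.884), Klhl25 (0.882) and Gm12522 (0.882) for Id1, and Mfsd13b (0.919) and Proser3 (0.895) for Id3. For Bmp2 they were Egfl6 (0.956), Nudt14 (0.955) and Eda (0.951), Eda being the ligand of the ectodysplasin pathway of skin appendages, and for Bmp4 they were Cryl1 (0.958), Hinfp (0.954) and Numa1 (0.950). Gm12522 and Mfsd13b are low genes, with mean values of 10.9 and 14.5.

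Of the 66 other pathway genes, 57 were tested in skin, and limma and edgeR called 0, with 6 (10.5%) at an unadjusted p below 0.05 in limma, against the 14.2% of all genes. DESeq2 called 2 of 56 (3.57%), Acvr2b and Sostdc1, against 3.95% of all genes, so neither share exceeded that over all genes. Acvr2b, a type II receptor, was at 70.0 to 104 in control and 30.4 to 56.1 in eKO (log2 change -0.86, limma adjusted p 0.106), and Sostdc1 at 355 to 551 and 601 to 1375 (0.87, limma adjusted p 0.130). Both had groups that did not overlap, as had 4.18% of all genes tested in skin. The groups of Smad5 did not overlap either, at 1572 to 2065 in control and 1380 to 1556 in eKO (log2 change -0.26, limma adjusted p 0.223).

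Whether the genotype effect differed between the tissues was tested as a contrast over all 16 libraries, on 13227 genes. Id2 alone among the members passed, with a log2 change of -0.69 in HFSC and 0.20 in skin and a difference of -0.88 (SE 0.21, limma adjusted p 0.0184). Over all genes tested, 2.18% were called more negative in HFSC and 3.44% more positive. The call for Id2 was lost without HFSC control replicate 2 (-0.84, limma adjusted p 0.0510). Id1 differed by -0.55 (SE 0.25, p 0.0418, limma adjusted p 0.213), Id3 by -0.55 (limma adjusted p 0.358), Id4 by 0.58 (0.398) and Smad6 by -1.31 (0.312), so for these 4 a difference between the tissues was not shown. Of 51 other pathway genes tested, 5 passed. Eng differed by 1.92 (limma adjusted p 0.00322), Atoh8 by -2.04 (0.00574), Grem1 by -1.35 (0.0350), Tcf4 by -1.05 (0.00162) and Tcf12 by -0.68 (0.0268). In skin, Tcf4 and Tcf12 had positive log2 changes of 0.42 and 0.21 that did not pass (limma adjusted p 0.169 and 0.421). The Grem1 difference passed in part of the fits only, with limma adjusted p up to 0.0841, and Tcf12 lost its call without any of 4 HFSC libraries (control replicates 1, 2 and 3 and eKO replicate 1, adjusted p 0.0551 to 0.0660).

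**Figure D5:**
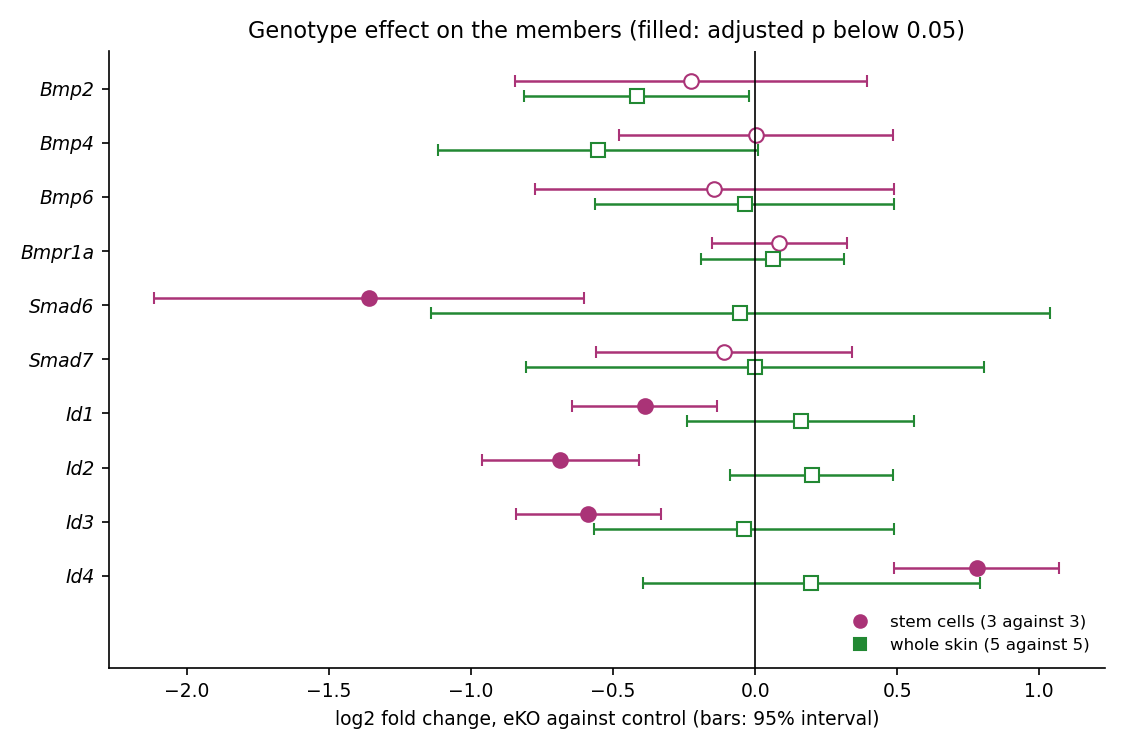
Log2 fold change, eKO against control, of the 10 members in sorted stem cells (circles) and whole skin (squares), with 95% intervals. Filled symbols passed an adjusted p of 0.05, which Id1, Id2, Id3, Id4 and Smad6 did in stem cells and no member did in skin, and the intervals of Id2 in the 2 tissues lie apart.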

How the data were processed

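Whole back skin and sorted HFSC were profiled by bulk RNA sequencing, the skin after poly-A selection per the labels' protocols. The authors deposited 1 table per tissue whose values are a signal: gene read counts divided by 1 size factor per library, per the values themselves, since the low values of each column are whole multiples of 1 step (100% within a tolerance of 0.01). Per the submitters' processing notes the build was GRCm39, and featureCounts and DESeq2 were used for skin. The aligner, versions, strand setting and, for HFSC, the counting tool are not given in the sources used here.

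Identifiers were matched to GENCODE M21 names (94.1% of skin rows, 91.4% of HFSC rows), and exon lengths came from its GRCm38 models. Hjv and Krt85 did not match. Groups came from the genotype and tissue labels. Each tissue was fitted alone in limma (version 3.58.1, trended prior). The scale was log2(value + 1), which understates changes of low genes. A gene was tested where at least 10 was reached in 5 skin or 3 HFSC libraries, and p-values were adjusted by Benjamini-Hochberg over all tested genes, at 0.05. Depth ran from 6.43 M to 16.4 M reads per library (M for mega). A contrast over 4 group means gave the difference between tissues, on genes tested in both. Intervals are 95% limma intervals. No pair of libraries of a table had equal reads in more than 18.4% of the genes with reads, so none was taken for a repeat. Alternatives were other pseudocounts and filters, TMM or library-size scaling, edgeR 4.0.16 and DESeq2 1.42.0 on recovered reads, single libraries left out, a replicate block, a hair matrix score as covariate, omission of the 2 skin libraries low in Y-linked genes, and a spread per tissue. The relation to the hair score without skin control replicate 4 was added after seeing the data. The fits were tested on simulated data. The text names all 10 members, other pathway genes past the threshold and those otherwise described, and the 3 genes most like Id1, Id3, Bmp2 and Bmp4, of which 1 for Id3 is not reported here. Bmpr2, Acvr1, Smad1, Smad5, Smad9, Msx2, Tcf3, Smurf2, Tgfbr3, Rgmb, Nfatc1, Sostdc1, Acvr2b, Bmper, Dlx3 and the markers Lgr5, Krt5 and Krt14 were added after their values were seen. Members and lists were chosen with earlier results of these data known.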

Additional observations from a re-analysis of the deposited data

Results flagged for a closer look

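In skin, 4 of the 20 groups of 5 libraries tested held a library far from the others by Dixon's test. Chance alone would give about 1 in 20 groups if the groups were independent. They are the 10 members in the same libraries, and Smad7 varied with Smad6 (r = 0.957) and with Bmpr1a (0.854), so the 4 flags cannot be set against that rate. Control replicate 4 was far above the other controls in Smad6 (823, next 236), Smad7 (1211, next 489) and Bmpr1a (2243, next 1786), and eKO replicate 3 was far above the other eKO libraries in Id2 (633, next 533). These 2 libraries also had the highest hair matrix and shaft scores, 11.2 and 9.41, and the part of that score in the values was not tested beyond the relation and the covariate fit reported above.

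The genotype effect differed between HFSC and skin, by the limma contrast of the difference itself, for Id2 (-0.88), Eng (1.92), Grem1 (-1.35), Atoh8 (-2.04), Tcf4 (-1.05) and Tcf12 (-0.68). The tissues also differ in age label, and marker genes of other cell types and the 4 Y-linked genes moved with genotype in HFSC. Sebaceous gland genes also moved with genotype in skin. Tissue, age, sex-linked expression and cell makeup thus cannot be told apart in these differences.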

How the results depend on the processing

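The calls of Id2, Id3 and Id4 in HFSC held in every alternative run, and the sign of all 5 called members did. In skin, limma called 62 genes: 37 with no filter, 32 with library size only, 656 in DESeq2 (332 higher and 324 lower, against 38 and 24), 150 with the hair score as covariate, and 0 without the 2 libraries low in Y-linked genes (control replicate 5 and eKO replicate 3), where 1790.0 had an unadjusted p below 0.05 and edgeR and DESeq2 were not run. Leaving out 1 skin library gave 10 (without eKO replicate 1) to 57 genes. In HFSC it gave 1519 (without control replicate 1) to 2620.0 (without eKO replicate 2) against 2673, and for the difference 484 (without HFSC control replicate 1) to 896 (without HFSC eKO replicate 2) against 743, where DESeq2 called 1275. Library-size scaling moved the median log2 change of all HFSC genes from -0.03 to -0.10 and gave 1271 higher and 1536 lower calls against 1468 and 1205, and 371 and 393 against 455 and 288 for the difference, with the same 1 higher and 4 lower members in HFSC.

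Signs turned only in results that had not passed. In skin, Smad7 was at 0.024 with library size only and 0.075 with the hair score, Smad6 at 0.044 with the hair score, and, without the 2 libraries low in Y-linked genes, Bmp6 at 0.017, Bmpr1a at -0.014 and Id4 at -0.049. In HFSC, Bmp4 was at -0.064 with library size only. For the difference, Bmpr1a was at -0.071 with library size only, Bmp6 at 0.034 in edgeR and 0.029 in DESeq2, and Smad7 at 0.11 and 0.10. Leaving out 1 library moved skin values of Bmp6 from -0.26 to 0.067, Smad6 from -0.30 to 0.41, Smad7 from -0.18 to 0.34, Id3 from -0.25 to 0.11 and Id4 from -0.029 to 0.35. It moved HFSC values of Bmp2 from -0.55 to 0.087, Bmp4 from -0.14 to 0.091, Bmp6 from -0.44 to 0.18 and Smad7 from -0.33 to 0.073. It moved the difference for Bmp2 from -0.14 to 0.50, Bmp6 from -0.40 to 0.22, Bmpr1a from -0.060 to 0.085 and Smad7 from -0.45 to 0.074. The cause was not tested.

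With the HFSC replicate number as a block, limma called 2696 genes, 2502 of them shared with the fit without it, and among the members Id1 alone lost its call. Libraries of the same number did not deviate together (correlations of -0.06, -0.02 and -0.03), so no pairing by number was seen. With few libraries in each group, this cannot exclude a pairing.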
